A study of Mus musculus with 12 samples.

Results

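Chemokines and interleukins are secreted signals that call leukocytes into a tissue and set how they behave there, and the genes described here are those signals and the receptors that read them. The 50 members were all rows whose symbol begins with Ccl, Cxcl, Ccr, Cxcr or Il followed by a digit and whose mean over the 12 libraries was at least 10 normalised reads. They were drawn from 109 rows that carry such a symbol, among 24775 rows in all, and the other 59 had a mean under 10. The members were 10 CC chemokines, 6 CXC chemokines, 4 chemokine receptors, 6 interleukins and 24 interleukin receptors or binding proteins. That mean chose the members, so a high level is not a result. Just inside the minimum lay Il2rb at 10.2, Il1b at 11.0 and Il17re at 11.7, and just outside it lay Ccl5 at 9.6, Il18 at 9.0 and Il7 at 8.5. All 50 passed the filter on low values used for testing. For 4 of them (Il1b, Il2rb, Il17re and Cxcl10) the mean would have been under 10 without 1 of the groups.

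The libraries came from hearts of C57BL/6 mice labelled WT. Before surgery every mouse was injected with a serotype 9 adeno-associated virus, either the control AAV9-Vector or AAV9-PRODH, which carries PRODH, the mitochondrial enzyme that opens proline breakdown. Surgery came 3 weeks later and was either a sham operation or transverse aortic constriction (TAC), a narrowing of the aorta that makes the left ventricle pump against pressure. Tissue was taken after a further 4 weeks, and there were 3 libraries in each of 4 groups, called vector sham, vector TAC, PRODH sham and PRODH TAC here. All mice thus carried a virus and had surgery. The sources used here do not give the sex and age of the mice, the promoter driving the transgene or the cells it reached. The labels number the samples but do not say that each is a separate mouse, so the p-values measure the spread between these samples.

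CC and CXC chemokines act through G protein-coupled receptors on leukocytes and are made in the heart by macrophages, fibroblasts and endothelial cells. Interleukins act through paired receptor chains, several of which are shared between cytokines, so a receptor chain can serve more than one ligand. In a pressure-loaded heart these signals are best known for bringing in monocytes and for their effects on fibroblasts and muscle cells. In whole tissue, a smaller number of cells of a type and less RNA in each cell cannot be told apart.

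The libraries held 10.1 to 15.2 M reads, recovered from the deposited values. Prodh lay between 159.6 and 379.3 normalised reads in the 6 vector libraries and between 496.7 and 1319.9 in the 6 PRODH libraries, so each library matched its virus label. The tissue label matched too: the 7 cardiomyocyte markers together reached at least 300192.4 normalised reads in every library. Vector TAC replicate 1 stood apart from the other vector TAC libraries. Its summed macrophage markers (11 genes) were 13875.4 against 8376.0 and 8209.9, and its summed mesothelial markers (8 genes, the outer lining of the heart) were 434.0 against 150.2 and 241.1. Its summed endothelial markers (6 genes) were lower, at 9209.0 against 16812.9 and 16678.7. So were its mural markers (5 genes, cells of the vessel wall), at 13184.8 against 20896.1 and 21462.4. Its Cxcl12 was 1159.1 against 3713.0 and 2849.4. PRODH sham replicate 2 was also high in mesothelial markers, at 464.7 against 93.3 and 85.3. Calls of members that changed without vector TAC replicate 1 are named beside the results.

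Of the 6 members whose level passed the test in some comparison below, 3 have a start region in the RefSeq table for GRCm38.p6 and are shown here because their transcripts moved with pressure. Each run reads 5′ to 3′ along the gene's strand and ends at the start site or at the first base annotated as exon in GENCODE M21. The regions are chr2:11705043-11705289 for Il15ra, chr1:40324339-40324588 for Il1rl2 and chr7:125552021-125552119 for Il4ra, all on the plus strand. A stretch of bases just after the start was found in a GENCODE M21 transcript of Il15ra and of Il4ra but not of Il1rl2.
Il15ra: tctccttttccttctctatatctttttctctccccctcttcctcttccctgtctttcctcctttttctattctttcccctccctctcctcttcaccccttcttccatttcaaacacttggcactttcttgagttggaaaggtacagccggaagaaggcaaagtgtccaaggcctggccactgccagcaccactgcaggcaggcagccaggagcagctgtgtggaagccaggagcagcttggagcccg
Il1rl2: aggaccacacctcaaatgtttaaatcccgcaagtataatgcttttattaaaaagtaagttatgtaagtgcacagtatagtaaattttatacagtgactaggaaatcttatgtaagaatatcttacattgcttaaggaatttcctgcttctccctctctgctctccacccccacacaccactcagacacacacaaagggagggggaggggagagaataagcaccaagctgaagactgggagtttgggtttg
Il4ra: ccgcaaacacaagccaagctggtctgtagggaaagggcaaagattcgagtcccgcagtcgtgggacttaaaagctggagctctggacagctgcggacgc
The 250 bases before each start were searched on both strands for the letters of a STAT palindrome (TTCNNNGAA), an interferon element (GAAA, any 2 bases, GAAA), an AP-1 site (TGANTCA) and a loose NF-kB pair (GGG, any 5 bases, CC). The windows behind the runs shown held none of them, so no base is in capitals. A second start window of Il15ra, which lies in annotated exon and is not printed, held 1 AP-1 match and 1 NF-kB match. Among all 32851 start regions in that table, 7.02% held the STAT palindrome, 2.98% the interferon element, 6.75% the AP-1 site and 45.8% the NF-kB pair. These letters are a description and say nothing of which factors bind.

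Levels differed widely between members. Per kilobase of exon, the highest mean over the 12 libraries was that of Cxcl12, at 361.3 normalised reads per kilobase, the chemokine that holds Cxcr4-bearing cells in place and is made by stromal and endothelial cells. Next came Il10rb, the shared second chain of the interleukin 10 receptors, at 293.5, and Ccl6, a CC chemokine of mouse macrophages, at 283.0. Il11ra1, which binds interleukin 11, had 251.5, and Il6st (gp130), the signalling chain of the interleukin 6 family, had 238.6. Some ligands had few reads: Il1b ran from 2.1 to 25.2 normalised reads across the 12 libraries, Cxcl10 from 1.1 to 35.7 and Ccl2 from 12.5 to 59.6.

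**Figure D1:**
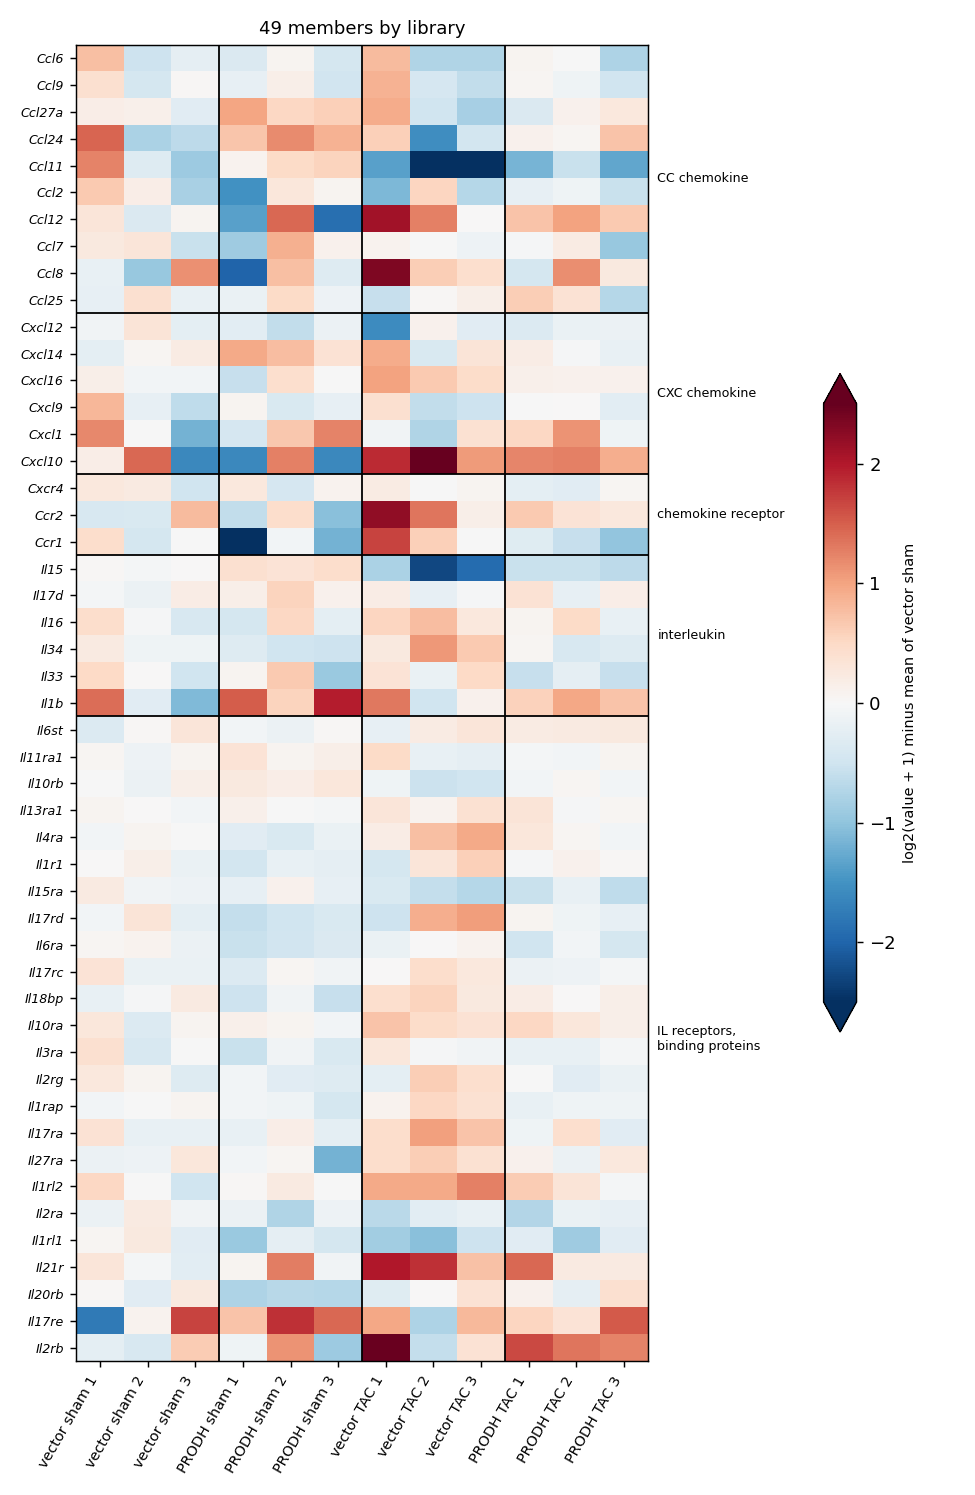
Each row is 1 of 49 members and each column 1 of the 12 libraries; colour gives log2(value + 1) minus the mean of vector sham, grouped by role. Il15 is below every vector sham library in all 6 TAC libraries, while Ccr1 and Ccr2 are highest in vector TAC replicate 1, at 126.1 and 177.4 normalised reads.

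The first aim of the series was the effect of TAC in vector hearts. The interleukin 15 pair, the ligand Il15 and its private receptor chain Il15ra, fell, as did the eosinophil chemokine Ccl11, while Il4ra, a receptor chain for interleukins 4 and 13, and Il1rl2, the receptor for interleukin 36, rose. Il15 was at 34.6% of its vector sham mean and Ccl11 at 16.8%. No other member passed the test. Each difference is given on the log2 scale with its standard error, fitted with limma to log2(value + 1), a scale that makes the differences of low genes too small, with Benjamini-Hochberg adjustment over all 21173 genes tested and 3 libraries per group. By this test 5 of 50 members were called, 2 higher and 3 lower, where 7.77% of all genes tested were called (3.72% higher and 4.05% lower), so the members were called at about the rate of other genes. Of the 50, 32 had a difference above 0 and 18 below, with a median of 0.24 against 0.02 over all genes. For 17 of 50 members the vector TAC libraries did not overlap the vector sham libraries, against 20.2% of all genes.

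Among the interleukins, Il15 supports natural killer cells and memory T cells and is made by muscle as well as by myeloid cells. Its normalised read counts were 524.5, 493.5 and 514.9 in vector sham and 293.4, 104.1 and 133.6 in vector TAC. All 3 TAC libraries lay below all 3 sham libraries, with TAC replicate 1 nearest to them. Its log2 difference was -1.67 ± 0.25 (limma adjusted p = 0.00089), and its call held under each of 22 alternative analyses, where the difference ran from -2.11 to -1.36. Il34, a ligand of the macrophage receptor Csf1r, had 117.2, 92.4 and 92.5 normalised reads in the vector sham libraries and 119.4, 213.3 and 158.9 in vector TAC. Its groups did not overlap, though vector TAC replicate 1 lay just above the highest sham library, and its log2 difference was 0.67 ± 0.22 (limma adjusted p = 0.083). It passed without that library, at 0.87 (limma adjusted p = 0.0073), and with edgeR and DESeq2 on recovered reads. Il16, a chemoattractant for CD4-bearing cells, and Il17d, a member of the interleukin 17 family, had means of 145.3 ± 25.6 (SD, n = 3) and 120.2 ± 16.3 in vector TAC against 103.1 ± 30.4 and 121.2 ± 14.9 in vector sham, and neither passed.

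The CC chemokine Ccl11 (eotaxin-1), which draws eosinophils, had 119.3, 39.8 and 26.3 normalised reads in the vector sham libraries and 19.0, 5.9 and 6.2 in vector TAC. The groups did not overlap, but the sham libraries were far apart, with replicate 1 the highest. The log2 difference was -2.36 ± 0.51 (limma adjusted p = 0.0093). This call was lost when only the groups compared entered the fit (limma adjusted p = 0.073), and over all 22 alternatives the adjusted p ran from 7.1e-05 to 0.073. The other 9 CC chemokines were not called. Ccl6 and Ccl9, macrophage chemokines that bind Ccr1, were the most abundant CC members by normalised reads, at 522.1 ± 350.6 (SD, n = 3) and 490.1 ± 296.1 in vector TAC against 579.4 ± 283.7 and 469.4 ± 134.5 in vector sham. Vector TAC replicate 1 held 927.0 normalised reads of Ccl6 against 318.2 and 321.2 in the other vector TAC libraries, and without it the log2 difference went from -0.24 ± 0.38 (limma adjusted p = 0.81) to -0.75 (limma adjusted p = 0.094). Ccl27a, a chemokine of skin-homing T cells, came next by normalised reads. It had 71.0, 68.8 and 51.5 in vector sham and 120.5, 44.6 and 34.9 in vector TAC, at -0.14 ± 0.36 (limma adjusted p = 0.89), and -0.66 (limma adjusted p = 0.096) without that library.

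None of the 6 CXC chemokines was called by limma, although 2 had an unadjusted p under 0.05, and edgeR and DESeq2 on recovered reads called 1 each. Of all genes tested, 19.7% had an unadjusted p under 0.05 in this comparison, and edgeR and DESeq2 called 12.7% and 8.97%. Cxcl16, which is both a scavenger receptor and a T cell chemoattractant, had 171.7, 147.6 and 148.2 normalised reads in the vector sham libraries and 313.5, 244.6 and 215.1 in vector TAC. All TAC libraries were above all sham libraries, and the log2 difference was 0.71 ± 0.21 (limma adjusted p = 0.058). Cxcl16 was the member called by edgeR and DESeq2, and it passed limma without PRODH sham replicate 1 or 2. It overlaps Zmynd15 on the opposite strand, with means of 31.7 normalised reads in sham and 48.7 in TAC hearts of the vector arm, and whether the counting used strand is not given, so the reads of both cannot be told apart. Cxcl12 had 3506.0 ± 731.1 (SD, n = 3) in vector sham and 2573.8 ± 1299.1 in vector TAC, with replicates 1 and 3 below all sham libraries and replicate 1 by far the lowest, and did not pass, at -0.58 ± 0.3 (limma adjusted p = 0.31). Without replicate 1 the log2 difference was -0.09 (limma adjusted p = 0.8). Cxcl14, a chemokine of fibroblasts and epithelia, had 292.9 ± 45.1 and 379.3 ± 164.6.

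Among the chemokine receptors, limma did not call Ccr1, Ccr2 or Cxcr4 after TAC in vector hearts. Ccr2, the receptor by which classical monocytes follow Ccl2, had 27.8, 28.1 and 65.1 normalised reads in the vector sham libraries and 177.4, 95.1 and 41.1 in vector TAC. The groups overlapped, and the log2 difference was 1.24 ± 0.49 (limma adjusted p = 0.16). It passed without vector TAC replicate 3, its lowest TAC library, at 1.78 (limma adjusted p = 0.036), and with DESeq2 on recovered reads (adjusted p = 0.048). Without vector TAC replicate 1 the difference was 0.74 (limma adjusted p = 0.33). Ccr1, which binds Ccl6 and Ccl9, reached 126.1 normalised reads in vector TAC replicate 1 and 58.0 and 37.7 in the others, against 28.1 to 52.4 in vector sham, with a log2 difference of 0.75 ± 0.61 (limma adjusted p = 0.57) that was 0.28 (limma adjusted p = 0.82) without that library. Cxcr4, the Cxcl12 receptor, had 165.7 ± 45.3 (SD, n = 3) in vector sham and 171.8 ± 13.2 in vector TAC.

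Macrophage markers were high in the same library as Ccr1 and Ccr2. The sum of 11 macrophage markers ran from 6291.4 to 8667.3 normalised reads after sham and from 8209.9 to 13875.4 after TAC in the vector arm, the monocyte sum (6 genes) from 27.2 to 51.5 and from 40.4 to 124.9. No macrophage marker was at 0 throughout, and 0 of the 11 passed limma, with 6 at an unadjusted p under 0.05, 1 called by edgeR and 2 by DESeq2. Of all genes, 19.7% had an unadjusted p under 0.05. Of the 6 monocyte markers 0 passed limma, with 1 at an unadjusted p under 0.05 and 0 called by edgeR or DESeq2. The part of cell numbers in the receptor values was not tested.

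**Figure D2:**
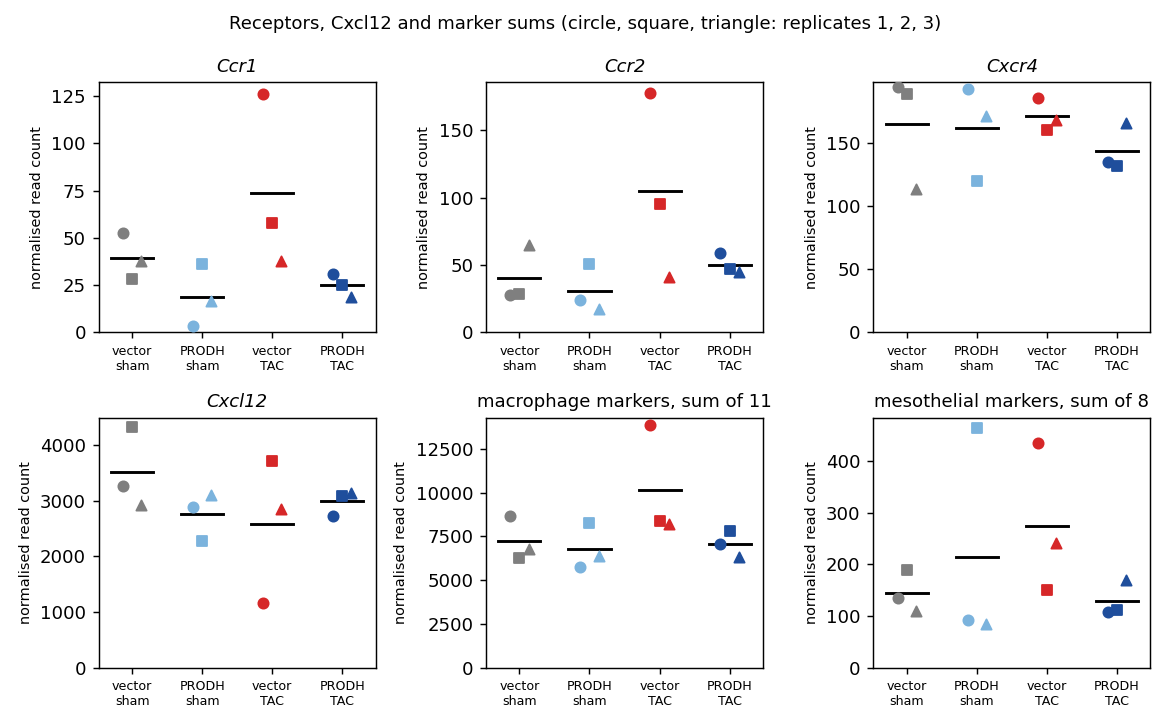
Normalised read count of 3 chemokine receptors, Cxcl12, summed macrophage markers and summed mesothelial markers in each library, by group, with a bar at the group mean and symbols for replicates 1 to 3. Vector TAC replicate 1 (red circle) is the highest library for Ccr1, Ccr2 and the macrophage sum and the lowest for Cxcl12.

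Of the 24 interleukin receptors and binding proteins, 3 passed, where 7.77% of all genes did, and 12 did not overlap between the groups, where 20.2% of all genes did not. Those shares include genes with a mean under 10. When only the 13953 genes with a mean of at least 10 were tested, limma called 12.4% of them and 7 of the 50 members. The share without overlap was not computed for those genes. Il15ra, which presents Il15 to neighbouring cells, had 330.1, 265.3 and 258.5 normalised reads in the vector sham libraries and 216.4, 186.6 and 171.9 in vector TAC. All TAC libraries were below all sham libraries. On the log2 scale the difference was -0.57 ± 0.16 (limma adjusted p = 0.048), just past the threshold, and the call was lost in 12 of 22 alternatives, with adjusted p from 0.0091 to 0.16. It was lost without any filter, with TMM scaling, in the fit of only the groups compared, and without any 1 of vector sham 1, 2 or 3, PRODH sham 1 or 3, vector TAC 2 or 3, or PRODH TAC 1 or 3, where the difference lay between -0.63 and -0.46. The chains that Il15 signals through, Il2rb and the common gamma chain Il2rg, differed by 0.74 ± 0.7 (limma adjusted p = 0.64) and 0.26 ± 0.23 (limma adjusted p = 0.62) and were not called. Without vector TAC replicate 1 they differed by -0.12 (limma adjusted p = 0.94) and 0.52 (limma adjusted p = 0.11).

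Il4ra, which pairs with Il2rg or Il13ra1 to receive interleukins 4 and 13, had 425.8, 470.9 and 447.6 normalised reads in the vector sham libraries and 512.0, 750.8 and 863.0 in vector TAC. The groups did not overlap, and replicate 1 was the lowest TAC library. Its log2 difference was 0.63 ± 0.17 (limma adjusted p = 0.031). Leaving out any 1 of the 3 vector sham libraries, or vector TAC 2 or 3, ended the call, as did the fit of only the groups compared, with adjusted p from 0.00019 to 0.14 over the 22 alternatives. Its partner Il13ra1 had an average of 690.3 normalised reads in sham and 828.2 in TAC hearts of the vector arm and did not pass (limma adjusted p = 0.27).

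Il1rl2 had 60.7, 41.7 and 29.4 normalised reads in the vector sham libraries and 82.6, 81.8 and 102.1 in vector TAC, with all TAC libraries above all sham libraries. The log2 difference was 1.05 ± 0.27 (limma adjusted p = 0.028). Leaving out vector sham 2 or 3 or vector TAC 2 or 3 ended the call, as did the fit of only the groups compared, with adjusted p from 0.0057 to 0.12 over the 22 alternatives. Of its relatives, Il1rl1 (ST2, the interleukin 33 receptor) had 39.1, 44.4 and 30.5 in vector sham and 20.1, 17.8 and 26.0 in vector TAC. These did not overlap, and the log2 difference was -0.8 ± 0.32 (limma adjusted p = 0.16). Il33 itself differed by 0.23 ± 0.35 (limma adjusted p = 0.8), and Il1rap, the accessory chain shared by the interleukin 1, 33 and 36 receptors, differed by 0.33 ± 0.19 (limma adjusted p = 0.37).

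Other receptor chains near the threshold were Il21r, the interleukin 21 receptor, at 1.52 ± 0.47 (limma adjusted p = 0.063), and Il17ra, the common interleukin 17 receptor chain, at 0.73 ± 0.25 (limma adjusted p = 0.11). Il10ra, the ligand-binding interleukin 10 chain of leukocytes, differed by 0.51 ± 0.19 (limma adjusted p = 0.13) and Il10rb by -0.38 ± 0.13 (limma adjusted p = 0.093). DESeq2 on recovered reads called Il10rb (adjusted p = 0.049). Il21r had 17.5, 13.6 and 11.6 normalised reads in the vector sham libraries and 59.1, 52.0 and 24.0 in vector TAC, which did not overlap, and it passed without PRODH sham replicate 2 (limma adjusted p = 0.044) or vector TAC replicate 3 (limma adjusted p = 0.036), with edgeR and with DESeq2. Il17rd, an inhibitory member of the interleukin 17 receptor family, was decided by 1 library. It had 205.7, 270.7 and 181.8 in vector sham and 151.7, 405.9 and 448.0 in vector TAC. Its log2 difference was 0.48 ± 0.3 (limma adjusted p = 0.42) with all libraries and 0.98 (limma adjusted p = 0.00054) without vector TAC replicate 1. Without that library 10 members, now also Il34, Il10rb, Il17ra, Il17rd and Il1r1, were called in this comparison in place of 5, and 16.6% of all genes.

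**Figure D3:**
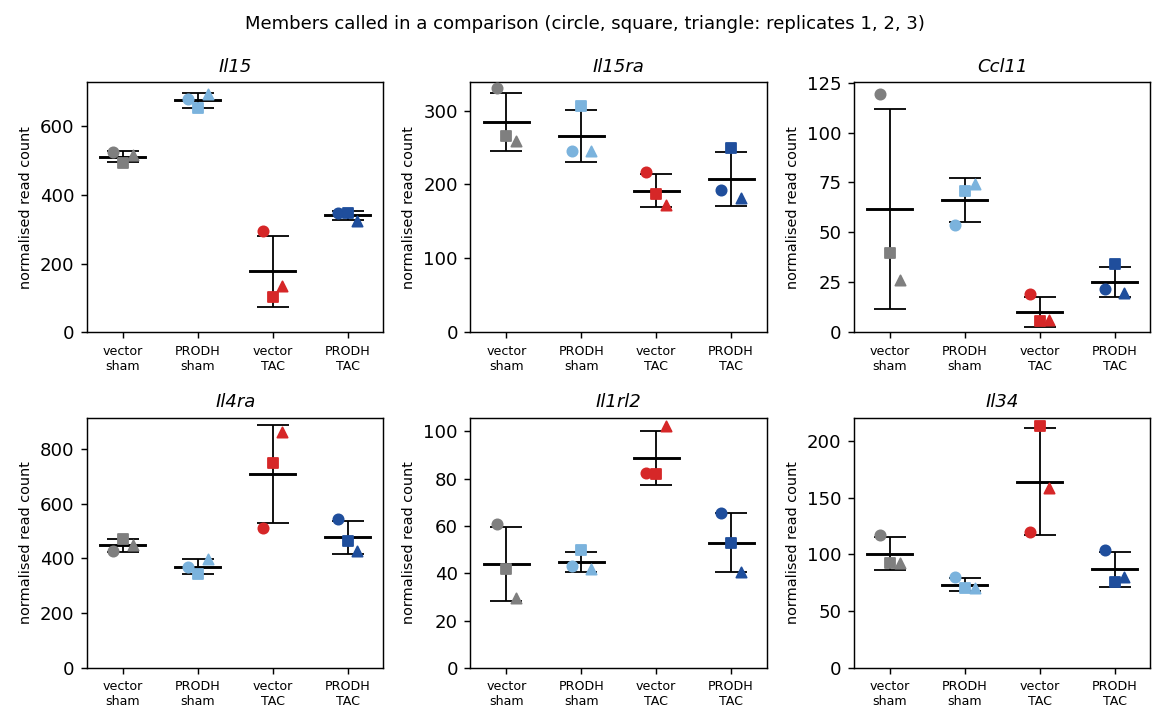
Normalised read count of the 6 members called in a comparison, for each library by group, with bars for the mean ± SD (n = 3) and symbols for replicates 1 to 3. Il15 is lowest in vector TAC, between 104.1 and 293.4, and lies between 325.0 and 348.4 in PRODH TAC.

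The second aim was the effect of PRODH in TAC hearts. Il15 was higher and Il34 lower with AAV9-PRODH than with AAV9-Vector, and no other member passed. The Il15 mean was 192.4% of that in vector TAC and the Il34 mean 52.9%. By the same test 2 of 50 members were called, 1 higher and 1 lower, where 3.92% of all genes were called (2.12% higher and 1.8% lower). The members' share is near that of all genes. When only genes with a mean of at least 10 were tested, limma called 2 members and 6.95% of those genes. The differences were above 0 for 19 members and below 0 for 31, with a median of -0.2 against -0.01 over all genes, and 13 members did not overlap between the groups, against 20.6% of all genes. This comparison uses the same vector TAC libraries as the one before, so a gene that those libraries hold high or low moves in opposite ways in both, and the values are set side by side only.

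Il15 had 293.4, 104.1 and 133.6 normalised reads in the vector TAC libraries and 348.4, 348.1 and 325.0 in PRODH TAC. All PRODH libraries were above all vector libraries and close together, with vector TAC replicate 1 nearest to them. On the log2 scale the difference was 1.09 ± 0.25 (limma adjusted p = 0.028). Leaving out vector TAC 2 or 3 or any 1 of the PRODH TAC libraries ended the call, as did the fit of only the groups compared, with adjusted p from 9.7e-07 to 0.14 and a difference from 0.78 to 1.52 over the 22 alternatives. Without vector TAC replicate 1 the difference was the highest of these. Il15ra had 192.6, 249.3 and 181.1 in PRODH TAC, which overlapped vector TAC, with a log2 difference of 0.11 ± 0.16 (limma adjusted p = 0.82). Il2rb and Il2rg differed by 0.66 ± 0.7 (limma adjusted p = 0.72) and -0.42 ± 0.23 (limma adjusted p = 0.42), and Il2rg passed without vector TAC replicate 1, at -0.67 (limma adjusted p = 0.045).

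Il34 had 119.4, 213.3 and 158.9 normalised reads in the vector TAC libraries and 104.2, 75.8 and 80.1 in PRODH TAC, with all PRODH libraries below all vector libraries. Its log2 difference was -0.88 ± 0.22 (limma adjusted p = 0.035). The call was lost without PRODH sham replicate 3, vector TAC replicate 2 or 3 or any 1 of the PRODH TAC libraries, and in the fit of only the groups compared, with adjusted p from 0.0022 to 0.2 over the 22 alternatives. Csf1r, its receptor, had a mean of 1212.6 ± 59.2 (SD, n = 3) in vector TAC and 943.4 ± 68.2 in PRODH TAC, and its log2 difference of -0.36 ± 0.13 did not pass (limma adjusted p = 0.15). An antisense RNA that overlaps Il34, Gm15894, had a mean of at most 0.4 normalised reads in any group.

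Limma called none of the remaining members with all libraries. Ccl11 had 21.8, 34.0 and 19.8 normalised reads in PRODH TAC, all above the vector TAC values of 19.0, 5.9 and 6.2 but close to the first of them, and its log2 difference was 1.35 ± 0.51 (limma adjusted p = 0.17). It passed without vector TAC replicate 1, at 1.85 (limma adjusted p = 0.016). Il4ra had 544.0, 463.4 and 426.0 in PRODH TAC, overlapping vector TAC at replicate 1, with a log2 difference of -0.54 ± 0.17 (limma adjusted p = 0.087). Without that library it was -0.76 (limma adjusted p = 0.00084). With all libraries DESeq2 on recovered reads called Il4ra (adjusted p = 0.027). Il1rl2 had 65.5, 52.7 and 40.6, below all vector TAC libraries, at -0.75 ± 0.27 (limma adjusted p = 0.16). Cxcl16 had 168.8, 168.0 and 168.0, also below all of them, at -0.59 ± 0.21 (limma adjusted p = 0.15).

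With PRODH in TAC hearts, limma, edgeR and DESeq2 called none of Ccr1, Ccr2 and Cxcr4, and only Ccr1 had an unadjusted p under 0.05. Ccr1 had 30.8, 25.3 and 18.7, which lay below the vector TAC libraries, at -1.38 ± 0.61 (limma adjusted p = 0.27), and -0.91 (limma adjusted p = 0.41) without vector TAC replicate 1. Ccr2 had 58.6, 47.2 and 45.0, which overlapped vector TAC, at -0.82 ± 0.49 (limma adjusted p = 0.45), and -0.32 (limma adjusted p = 0.75) without that library. Cxcr4 had 135.0, 131.8 and 165.8, also with overlap, at -0.26 ± 0.22 (limma adjusted p = 0.64). The macrophage marker sum ran from 6326.7 to 7828.0 in PRODH TAC, below its range in vector TAC. Of the 11 macrophage markers limma called 0, with 5 at an unadjusted p under 0.05 (16.5% of all genes) and 0 called by edgeR or DESeq2. Their part in the receptor values was not tested. Among the other receptor chains, Il17ra differed by -0.71 ± 0.25 (limma adjusted p = 0.15), Il10rb by 0.35 ± 0.13 (limma adjusted p = 0.16) and Il1rap by -0.47 ± 0.19 (limma adjusted p = 0.22). Without vector TAC replicate 1, 8 members were called in place of 2 and 13.2% of all genes, so the rise in calls was shared by other genes. Those called without it included Il17rd at -1.06 (limma adjusted p = 0.00049), Il10rb at 0.49 (limma adjusted p = 0.0061) and Il17ra at -0.86 (limma adjusted p = 0.045).

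**Figure D4:**
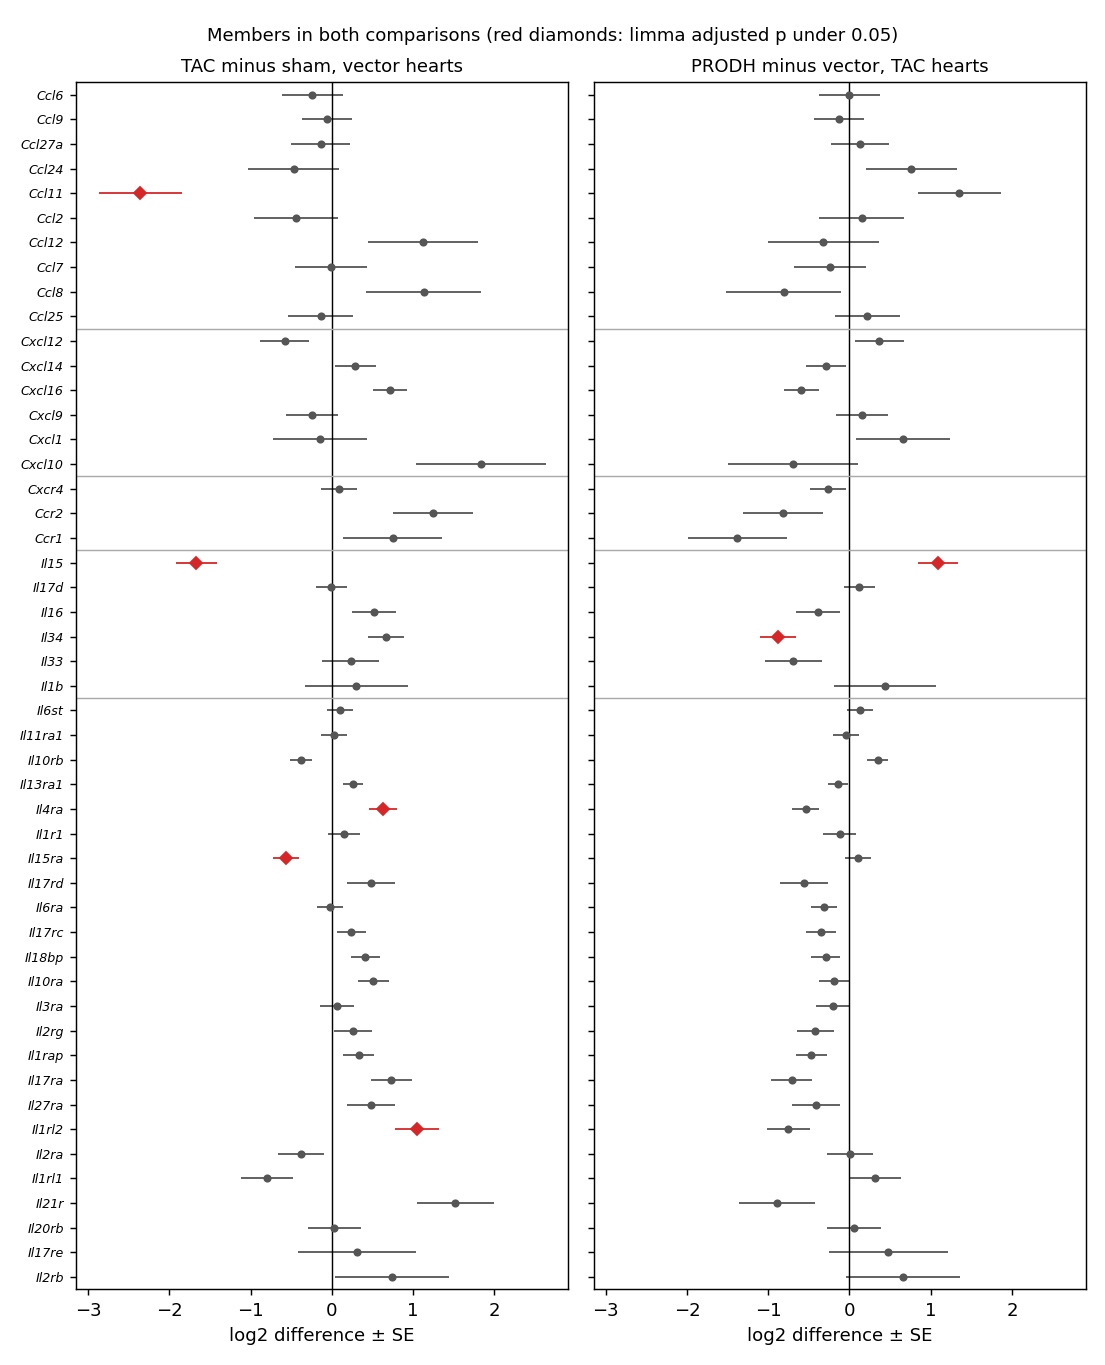
Log2 difference ± standard error (limma) of 49 members after TAC in vector hearts (left) and with PRODH in TAC hearts (right), on 1 common scale; red diamonds passed an adjusted p of 0.05. Both panels use the same 3 vector TAC libraries, and Il15 is the member marked in both, at -1.67 and 1.09.

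In sham hearts limma called 0 of 50 members between PRODH and vector, with 6 at an unadjusted p under 0.05 and 0 called by edgeR or DESeq2. It called 0% of all genes, and 4.11% of all genes had an unadjusted p under 0.05. The groups did not overlap for 11 members, against 11.2% of all genes. Limma called 0 members here without PRODH sham replicate 2 as well, and without each other library in turn. Il15 had 678.2, 651.2 and 693.6 normalised reads in PRODH sham, all above the vector sham libraries (524.5, 493.5 and 514.9), with a log2 difference of 0.4 ± 0.25 (limma adjusted p = 0.97). Il34 had 79.7, 70.6 and 70.0, all below vector sham, at -0.44 ± 0.22 (limma adjusted p = 0.97). The member with the smallest unadjusted p was Il6ra, the ligand-binding interleukin 6 chain, with 127.4, 134.7 and 146.6 in PRODH sham against 196.4, 200.1 and 171.3 in vector sham. It did not overlap, at -0.47 ± 0.16 (limma adjusted p = 0.97). Cxcl14 had 557.6, 498.9 and 375.2 against 244.8, 299.7 and 334.2, at 0.69 ± 0.25 (limma adjusted p = 0.97).

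After TAC in PRODH hearts, limma called 0 of 50 members, with 8 at an unadjusted p under 0.05, 0 called by edgeR and 1 by DESeq2. Limma called 0.0236% of all genes, and 8.58% of all genes had an unadjusted p under 0.05. With only the groups compared in the fit, 4 members were called (Ccl11, Cxcl14, Il15 and Il6st) and 5.35% of all genes, so the members' share was near that of all genes there too. The groups did not overlap for 13 members, against 21.8% of all genes. The member called by DESeq2 was Il15. Its PRODH TAC libraries, between 325.0 and 348.4 normalised reads, all lay below its PRODH sham libraries, between 651.2 and 693.6, and the mean was 50.5% of the sham mean. Its log2 difference was -0.98 ± 0.25 (limma adjusted p = 0.26). It passed at the same difference without vector TAC replicate 1 (limma adjusted p = 0.00026), a library outside this comparison that enters only through the shared spread. In that fit limma called 1 of 50 members and 1.42% of all genes. Ccl11 had a mean of 66.2 ± 11.1 (SD, n = 3) normalised reads in PRODH sham and 25.2 ± 7.7 in PRODH TAC, without overlap, at -1.38 ± 0.51 (limma adjusted p = 0.47).

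The difference between the TAC responses of PRODH and vector hearts was tested directly. Limma called 0 of 50 members, with 2 at an unadjusted p under 0.05 and 0 called by edgeR or DESeq2. It called 0.104% of all genes, and 8.6% of all genes had an unadjusted p under 0.05. For Il15 the response was 0.69 ± 0.36 log2 units higher in PRODH than in vector hearts (limma adjusted p = 0.65). Without vector TAC replicate 1 this was 1.12 (limma adjusted p = 0.0012). In that fit limma called 1 of 50 members and 1.98% of all genes, so the members' share was near that of all genes. The 2 members with an unadjusted p under 0.05 were Cxcl14, at -0.99 ± 0.36 (limma adjusted p = 0.42), and Il1rl2, at -0.84 ± 0.39 (limma adjusted p = 0.57). The calls in vector hearts and their absence in PRODH hearts therefore do not show that these responses differ.

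Genes around the members were read from lists of related pathways. Limma called 7.77% of all genes after TAC in vector hearts and 3.92% with PRODH in TAC hearts, the shares beside which each list's limma count stands. An unadjusted p under 0.05 was reached by 19.7% and 16.5% of all genes. EdgeR called 12.7% and 6.76% of the genes it tested in these comparisons, and DESeq2 called 8.97% and 6.03%. Both comparisons use the same vector TAC libraries. For the difference between the TAC responses of PRODH and vector hearts, limma called 0 genes of each pathway list and 0.104% of all genes. DESeq2 on recovered reads called 1 of the other chemokine genes and 1 of the Janus kinase and STAT genes for it, and 0.811% of all genes. Of 15 other chemokine genes tested, 4 rose and 1 fell after TAC, with a median difference of 0.43 against 0.02 over all genes. Ackr4, a scavenger that removes Ccl19 and Ccl21, had 134.7, 150.3 and 140.8 normalised reads in the vector sham libraries, 281.1, 504.0 and 361.0 in vector TAC and 164.8, 174.6 and 130.6 in PRODH TAC. Vector TAC lay above both other groups in every library. It rose by 1.38 ± 0.22 after TAC (limma adjusted p = 0.0011) and fell by 1.25 ± 0.22 on the log2 scale with PRODH (limma adjusted p = 0.0053), and both calls held in 22 of 22 alternatives. The difference between its TAC responses in PRODH and vector hearts was -1.18 ± 0.31 (limma adjusted p = 0.2). Cx3cl1 (fractalkine), an endothelial ligand, rose by 1.32 ± 0.27 (limma adjusted p = 0.0063), a call lost in the fit of only the groups compared. Its receptor Cx3cr1 rose by 1.86 ± 0.51 (limma adjusted p = 0.038) and Ackr2, a scavenger of CC chemokines, by 1.23 ± 0.36 (limma adjusted p = 0.049), calls lost in 8 and 13 of 22 alternatives. Ccrl2, an atypical receptor that binds chemerin, fell by 0.77 ± 0.19 on the log2 scale (limma adjusted p = 0.02), a call lost in 4. With PRODH, 1 gene of this list rose and 1 fell, with a median of -0.44 against -0.01 over all genes. The one that rose was Ackr3, a scavenger of Cxcl12, which had 1044.2, 1097.2 and 1249.4 normalised reads in the vector TAC libraries and 1640.9, 1532.9 and 1854.2 in PRODH TAC. Its log2 difference was 0.57 ± 0.13 (limma adjusted p = 0.024), and the call was lost in 5 of 22 alternatives.

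Of 10 interleukin 6 type genes tested outside the family names, the ligand Ctf1 and the receptor chain Lifr fell after TAC and rose with PRODH. Ctf1 (cardiotrophin 1), a ligand of the Lifr and Il6st receptor, had 117.2, 83.3 and 89.3 in vector sham, 53.5, 37.9 and 39.0 in vector TAC and 77.4, 104.3 and 87.8 in PRODH TAC. Vector TAC was below the other groups in every library. Ctf1 fell by 1.14 ± 0.21 on the log2 scale after TAC (limma adjusted p = 0.0032) and rose by 1.04 ± 0.21 with PRODH (limma adjusted p = 0.013), the latter call lost without vector TAC 2 or 3 or PRODH TAC 2 or 3 and in the fit of only the groups compared. Lifr had 658.2, 809.5 and 993.0 normalised reads in the vector sham libraries, 518.7, 517.4 and 492.5 in vector TAC and 675.0, 827.9 and 754.2 in PRODH TAC, again with vector TAC below both other groups. It fell by 0.67 ± 0.15 on the log2 scale after TAC (limma adjusted p = 0.0099), a call lost without vector sham replicate 3 and in the fit of only the groups compared. With PRODH it rose by 0.56 ± 0.15 (limma adjusted p = 0.045), a call lost in 9 of 22 alternatives. Il6st, the chain that pairs with Lifr, kept means from 2396.9 to 2934.5 normalised reads in the 4 groups and was not called with all libraries in any comparison. With only the groups compared in the fit it was called after TAC in PRODH hearts, at 0.29 (limma adjusted p = 0.041).

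Of 18 genes of Janus kinase and STAT signalling, the route below most interleukin receptors, 0 rose and 3 fell after TAC by limma, and 1 rose and 0 fell with PRODH. Unadjusted p under 0.05 was reached by 4 and 3 genes, and edgeR and DESeq2 called 3 and 3 after TAC and 1 and 1 with PRODH. The genes that fell were Stat5a, Stat5b and Cish, and the one that rose was Stat5a. STAT5 proteins act below Il15 and other ligands of the common gamma chain, and Cish is a feedback inhibitor induced by STAT5. Stat5a had 325.0, 288.9 and 364.6 normalised reads in the vector sham libraries, 212.0, 179.1 and 179.5 in vector TAC and 376.2, 288.8 and 334.8 in PRODH TAC. Vector TAC did not overlap either group. Stat5a fell by 0.77 ± 0.15 on the log2 scale after TAC (limma adjusted p = 0.0051) and rose by 0.8 ± 0.15 with PRODH (limma adjusted p = 0.009), the latter call lost without PRODH TAC replicate 1. Cish fell by 1.03 ± 0.23 on the log2 scale (limma adjusted p = 0.012), a call lost without vector sham replicate 2 and in the fit of only the groups compared, and the call of Stat5b was lost in 13 of 22 alternatives.

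Of 12 tumour necrosis factor genes tested, 4 rose and 0 fell after TAC by limma, with 5 at an unadjusted p under 0.05 and 4 called by each of edgeR and DESeq2, and 0 rose and 1 fell with PRODH, with 3, 2 and 2. Tnfrsf12a, the receptor of the cytokine TWEAK, rose by 1.67 ± 0.19 (limma adjusted p = 0.0001) and its call held in 22 of 22 alternatives. Tnfrsf11b (osteoprotegerin), a decoy receptor, had 3.1, 3.6 and 0.0 normalised reads in the vector sham libraries, 17.8 to 81.8 across vector TAC and 6.0, 6.6 and 5.5 in PRODH TAC. It rose by 4.01 ± 0.64 after TAC (limma adjusted p = 0.0012), in 22 of 22 alternatives, and fell by 2.62 ± 0.64 on the log2 scale with PRODH (limma adjusted p = 0.034), a call lost in 6. The tumour necrosis factor receptors Tnfrsf1a and Tnfrsf1b rose by 0.53 ± 0.15 (limma adjusted p = 0.047) and 0.77 ± 0.2 (limma adjusted p = 0.026), calls lost in 14 and 6 of 22 alternatives. Of 9 colony stimulating factor genes tested, 3 rose and 0 fell after TAC, and with PRODH limma called 0, with 4 at an unadjusted p under 0.05 and 2 called by each of edgeR and DESeq2. The genes that rose were the receptor chains Csf2rb, Csf2rb2 and Crlf2. Of 21 genes of interleukin 1 and Toll signalling, 1 rose (Nfkb1) after TAC and 1 fell (Irak3) with PRODH. Of 12 leukocyte adhesion genes, 1 rose after TAC and the same one, Icam1, fell with PRODH, each call lost in 10 of 22 alternatives. After TAC the calls of Csf2rb, Csf2rb2, Crlf2 and Nfkb1 were lost in 2, 4, 5 and 5 of 22 alternatives, each including the fits without vector TAC replicate 3, and that of Irak3 with PRODH in 10.

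Beside the fall of Il15 and its higher level with PRODH, markers of heart muscle and fibroblasts moved too. Of 7 cardiomyocyte markers 2 fell after TAC by limma and the same 2, Pln and Ryr2, rose with PRODH. These calls were lost in 4 and 10 of 22 alternatives after TAC and in 10 and 11 with PRODH. EdgeR and DESeq2 called 3 and 5 of the 7 after TAC and 2 and 2 with PRODH. The summed cardiomyocyte markers ran from 399945.2 to 554986.1 normalised reads in the vector sham libraries, from 300192.4 to 397698.1 in vector TAC and from 419548.0 to 484860.0 in PRODH TAC. Of 7 fibroblast markers 4 rose after TAC by limma (Col1a1, Col1a2, Dcn and Lum) and 3 fell with PRODH (Col1a2, Dcn and Lum). The calls of Col1a1 and Dcn after TAC were lost in 1 alternative each, and that of Col1a2 with PRODH in 5. EdgeR and DESeq2 called 5 and 5 fibroblast markers after TAC and 4 and 5 with PRODH. The sums ran from 16470.0 to 18355.7 in vector sham, 29154.1 to 51030.5 in vector TAC and 16476.0 to 18238.5 in PRODH TAC. No marker of either list was at 0 throughout. Among natural killer, T and B cell markers, limma, edgeR and DESeq2 called 0 in both comparisons of the aims, with 3 at most at an unadjusted p under 0.05 in all, and their sums stayed at or under 56.9 normalised reads in every library. The part of any cell type in the values of Il15, Ccl11, Il34, Il4ra and Il1rl2 was not tested.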

How the data were processed

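Per the labels' protocols, heart RNA was isolated with TRIzol, cleared of DNA with DNase I and sequenced from SMARTER mRNA libraries. The deposited values are a signal: gene counts that the authors divided by a factor for each library. This is read from the values, since each is a whole multiple of its column's smallest step. Division by it gave whole reads, within a tolerance of 0.01, for 100.0% of values. In PRODH TAC replicate 1 the step was 0.993. The table's baseMean column, per the file headers, equals the mean of the libraries. The aligner, counting tool, annotation, strand setting and genome build were not given in sources used here. Of the gene IDs 24735, and all 50 members, matched GENCODE M21 (GRCm38), which gave exon lengths and overlapping genes; 37 members matched a RefSeq start region.

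The main test was limma 3.58.1 (trended prior, R 4.3.3) on log2(value + 1). The 21173 genes tested had 1 or more normalised reads in 3 or more libraries. All 12 libraries were fitted with 1 mean per group (8 residual degrees of freedom), and p-values were Benjamini-Hochberg adjusted over all genes at 0.05. The values are not raw counts, so a count test served only as an alternative: edgeR 4.0.16 and DESeq2 1.42.0 on the recovered reads. A permutation of 3 against 3 libraries cannot go below p = 0.1, so p-values rest on the model. The procedure was also run on simulated counts with the same spread for all genes and no outlying library, so that run does not cover a library such as vector TAC replicate 1. Precision is limited by 3 libraries per group.

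The members, lists, tests and alternatives were chosen with earlier results of these data known. Named with values are every called member, the 8 uncalled members with the smallest p in both aims' comparisons, the 3 highest of each role, those next to the minimum, and their ligands or receptors. Other genes are named where a list member was called. Ccr1, Il17rd, Il1r1, Cxcl10, Il6ra, Il13ra1, Il33, Ccl2 and Gm15894, and the members outside the aims' comparisons, were added after their values were seen. Results of 1 member, and of 1 gene on a related list, are not reported here; counts over all 50 members include that member.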

Additional observations from a re-analysis of the deposited data

How the results depend on the processing

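Over the 250 log2 differences of members (50 members in 5 comparisons), no alternative turned the direction of a called value. After TAC in vector hearts 5 members were called: 8 with edgeR (12.7% of all genes), 11 with DESeq2 (8.97%), 1 with only the groups compared (3.45%), and 11 without both vector TAC 1 and PRODH sham 2 (17.6%). Leaving out 1 library gave 2 to 10. With PRODH in TAC hearts 2 were called: 4 with DESeq2 (6.03%), 0 with only the groups compared (2.03%), 8 without both libraries (14.1%), and 0 to 8 leaving out 1 library. With PRODH in sham hearts 0 were called under every alternative. After TAC in PRODH hearts 0 were called: 1 with DESeq2 (0.501%), 4 with only the groups compared (5.35%), 2 without both libraries (1.55%), and 0 to 1 leaving out 1 library. For the difference between responses 0 were called, 1 without both libraries (1.34%), and 0 to 1 leaving out 1 library. The highest counts leaving out 1 library came without vector TAC replicate 1, and the cause was not tested. Another pseudocount (0.1), other filters, and quantile or TMM scaling kept each count within 1.5 times. The labels do not say whether the replicate numbers pair the samples. Over 18 same-number pairs the correlation of deviations ran from -0.05 to 0.14, with 2 above 0.1, which cannot settle this in groups of 3. With the replicate block the counts were 6, 2, 0, 0 and 0. Members with few reads are limited by depth: Ccl11 had 8 to 116 reads per library.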

Other observations

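Of the 59 family rows under the minimum mean, 46 could be tested. After TAC in vector hearts limma called 4 of them (Ccl22, Cxcl2, Il22ra2 and Il9r), where it called 7.77% of all genes. With PRODH in TAC hearts it called 1 (Il11), where it called 3.92% of all genes. These rows lie outside the members and are given as values only. Il11, a cytokine of the interleukin 6 family, had 8.9 to 16.4 normalised reads across vector TAC, 0.0, 3.3 and 1.1 across PRODH TAC, 4.1, 1.8 and 3.2 in vector sham and 1.1, 0.0 and 3.3 in PRODH sham. Cxcl2, a neutrophil chemokine, had 11.2, 12.6 and 5.5 in vector TAC and at most 4.0 in any other library. Il22ra2, a soluble receptor that binds interleukin 22, had 7.8, 2.2 and 2.7 in vector TAC, 1.0, 0.0 and 1.1 in PRODH TAC and 0.0 in all 6 sham libraries. It passed the filter on low values only through the vector TAC libraries, where it is high, so its call is not a result. Ccl22 had 8.9, 3.0 and 1.4 in vector TAC and 0.0 in every vector sham library. Il9r went the other way, with 5.1, 0.9 and 5.3 in vector sham and 0.0 in every vector TAC library.

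Vector TAC replicate 1 was the highest of its group for 25 of the 50 members and the lowest for 15. PRODH sham replicate 2 was the highest of its group for 29 members and vector sham replicate 1 for 26. Cxcl10 overlaps Art3 on the opposite strand, with a mean of 4173.1 normalised reads after sham and 2223.8 after TAC in the vector arm. Ccl27a and Il11ra1 overlap each other in the same way.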
